A study of Mus musculus with 16 samples.

Results

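The gluconeogenesis enzymes described here are 9 genes of glucose synthesis in the liver, namely Pck1, Pck2, G6pc, Fbp1, Pcx, Slc37a4, Got1, Mdh1 and Gpt2. They were chosen by name: every probe set annotated with exactly 1 gene symbol that is one of these names was taken, which gave 9 probe sets, 1 for each gene, of the 35519 on the array. The tests ran over 19935 genes. Liver RNA of 16 mice, all male and of mixed background (Sv129/C57Bl/6), was hybridised to Affymetrix whole-transcript arrays, 1 mouse to an array. The groups were 3 PPARβ/δ knockout mice fasted for 24 h, 4 fed PPARβ/δ knockout mice, 5 wild-type mice fasted for 24 h and 4 fed wild-type mice. Ppard encodes PPARβ/δ, a receptor in the nucleus that fatty acids activate. The labels call the arrays biological replicates, and the series text puts 4 to 5 mice in a group, more than the 3 arrays of knockout fasted mice. No source used here gives the age of the mice or says which part of Ppard was deleted.

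Gluconeogenesis makes glucose from lactate, glycerol and amino acids, and in a fast the liver is its main site. Most of its steps run glycolysis in reverse, and a few enzymes bypass the glycolytic steps that cannot be reversed. Pyruvate carboxylase (Pcx) and phosphoenolpyruvate carboxykinase (Pck1 in the cytosol, Pck2 in mitochondria) carry pyruvate to phosphoenolpyruvate, fructose-1,6-bisphosphatase (Fbp1) removes a phosphate further up, and glucose-6-phosphatase (G6pc) with its transporter (Slc37a4) releases free glucose. Aspartate aminotransferase (Got1) and malate dehydrogenase (Mdh1) move carbon and reducing power between mitochondria and cytosol, and alanine aminotransferase (Gpt2) turns alanine into pyruvate. Glucagon, acting through cyclic AMP, and glucocorticoids induce Pck1 and G6pc, and insulin represses them.

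A fast of 24 h moved these genes unequally. In knockout mice 1 of the 9 passed the test, Gpt2, which rose 1.65-fold. In wild-type mice Pck1, Gpt2, Pcx, Slc37a4 and Fbp1 rose by 1.28-fold to 1.84-fold, Mdh1 fell, and Got1, Pck2 and G6pc did not pass. Before adjustment 7 of the 9 had a limma p under 0.05 in knockout mice, and 7 in wild-type mice. In both genotypes these were all but Pck2 and G6pc, each with the same sign. The share of all genes under that unadjusted threshold is not given here, so these counts stand without a comparison. No gene of the 9 passed between knockout and wild-type mice in either feeding state, and none passed the test of a different fasting response between the genotypes. The test was limma's moderated fit on log2 intensity over all 16 arrays, two-sided, and a gene passed at an adjusted p under 0.05 (Benjamini-Hochberg over the 19935 genes). Values below are log2 intensities, differences are log2 fold changes with the standard error of the fit, and the number of arrays limits their precision. Because the array measures whole liver, fewer cells of a type and less RNA per cell cannot be told apart.

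Of all genes tested, 3.67% passed for fasting in knockout mice and 9.22% in wild-type mice, against 1 and 6 of the 9 enzymes. When dim genes (mean log2 under 2.79) were left out, 820 of 11961 genes passed in knockout mice and 1932 in wild-type mice. Rises made up 1.87% of all genes in knockout mice and 3.30% in wild-type mice, and falls 1.80% in knockout mice and 5.92% in wild-type mice. The median difference over the 9 was 0.30 in knockout mice, where that over all genes was -0.02, and 0.51 in wild-type mice, where that over all genes was 0.02. Fasted and fed mice did not overlap for 5 of the 9 in knockout mice, as for 13.2% of all genes, and for 5 of the 9 in wild-type mice, as for 12.2% of all genes.

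The 250 bases before the start of transcription are shown for Pck1, which rose in wild-type mice, for G6pc, which did not pass in either genotype, and for Slc37a4, the partner of G6pc, which rose in wild-type mice. The sequences are RefSeq's, each 5′ to 3′, and capitals mark matches on either strand to 5 short motifs. These were the cyclic AMP response element core ACGTCA, the insulin response element TGTTTTG, the forkhead element TGTTTAC, the nuclear receptor half-site AGGTCA and the TATA box TATAAA. No base was marked by more than 1 motif. For Slc37a4, which has several annotated starts, the one farthest upstream is shown.
Pck1, GRCm38.p6 chr2:173152823-173153072, plus strand: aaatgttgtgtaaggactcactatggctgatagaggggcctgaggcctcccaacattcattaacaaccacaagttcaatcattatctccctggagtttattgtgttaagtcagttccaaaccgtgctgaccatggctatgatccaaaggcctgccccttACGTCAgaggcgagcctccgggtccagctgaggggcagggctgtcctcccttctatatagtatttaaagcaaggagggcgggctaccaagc
G6pc, GRCm38.p6 chr11:101367466-101367715, plus strand: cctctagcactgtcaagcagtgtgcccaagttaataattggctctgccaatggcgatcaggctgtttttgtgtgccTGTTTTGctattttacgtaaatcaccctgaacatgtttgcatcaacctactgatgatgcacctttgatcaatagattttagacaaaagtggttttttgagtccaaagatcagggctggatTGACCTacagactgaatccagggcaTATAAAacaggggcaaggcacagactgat
Slc37a4, GRCm38.p6 chr9:44396696-44396945, plus strand: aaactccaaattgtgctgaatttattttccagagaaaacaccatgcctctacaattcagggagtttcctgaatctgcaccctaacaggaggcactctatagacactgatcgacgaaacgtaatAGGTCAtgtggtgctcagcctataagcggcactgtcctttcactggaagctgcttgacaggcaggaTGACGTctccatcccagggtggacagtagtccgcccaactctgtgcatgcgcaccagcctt
All 9 genes had an entry, with 12 promoters among them. The cyclic AMP element core lay 91 bases before the start in Pck1 and, on the other strand, 61 bases before the start in Slc37a4, and in no other of the 9 genes. It occurred in 6.47% of all 32851 promoters in the same window. The insulin response element was found in G6pc, 174 bases before the start, and in Pck2, against 5.56% of all promoters. The nuclear receptor half-site was found in G6pc, Slc37a4 and Got1, against 14.02% of all promoters, and the TATA box in G6pc and at another start of Slc37a4, against 12.4%. The forkhead element, in 3.17% of all promoters, was in none of these windows. A match is a string of letters, and no match says only that those letters are missing from this window.

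Ppard, the targeted gene, had 4.50, 4.36 and 4.58 in knockout fasted mice and 5.00, 4.50, 4.45 and 4.89 in knockout fed mice, against 4.62, 4.40, 4.54, 4.67 and 4.58 in wild-type fasted mice and 4.78, 5.50, 5.31 and 4.83 in wild-type fed mice. It overlapped between genotypes in both feeding states, and since the deleted part is not known its level checks nothing about the genotype. Its fasting difference passed in wild-type mice (-0.54 ± 0.14, adjusted p = 0.025) and not in knockout mice (-0.23 ± 0.16, adjusted p = 0.578). The difference of these responses did not pass (limma adjusted p = 0.56). Of 8 hepatocyte markers 6 were measured: Alb, Apoa1, Apob, Ttr, Cps1 and Fgb, each above 99.8% of genes in mean level. Their summed intensity ranged from 21092 to 23823 over all mice. Acute phase genes stood apart in knockout fed mice 1 and 4, with scores of 1.91 and 3.16 over 8 genes. The other knockout fed mice had 0.87 (mouse 3) and -0.43 (mouse 2), and no mouse of another group was above 0.20. Values without both mice are given where they end a call, turn a sign or move a printed value by more than 1.5 times.

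**Figure D1:**
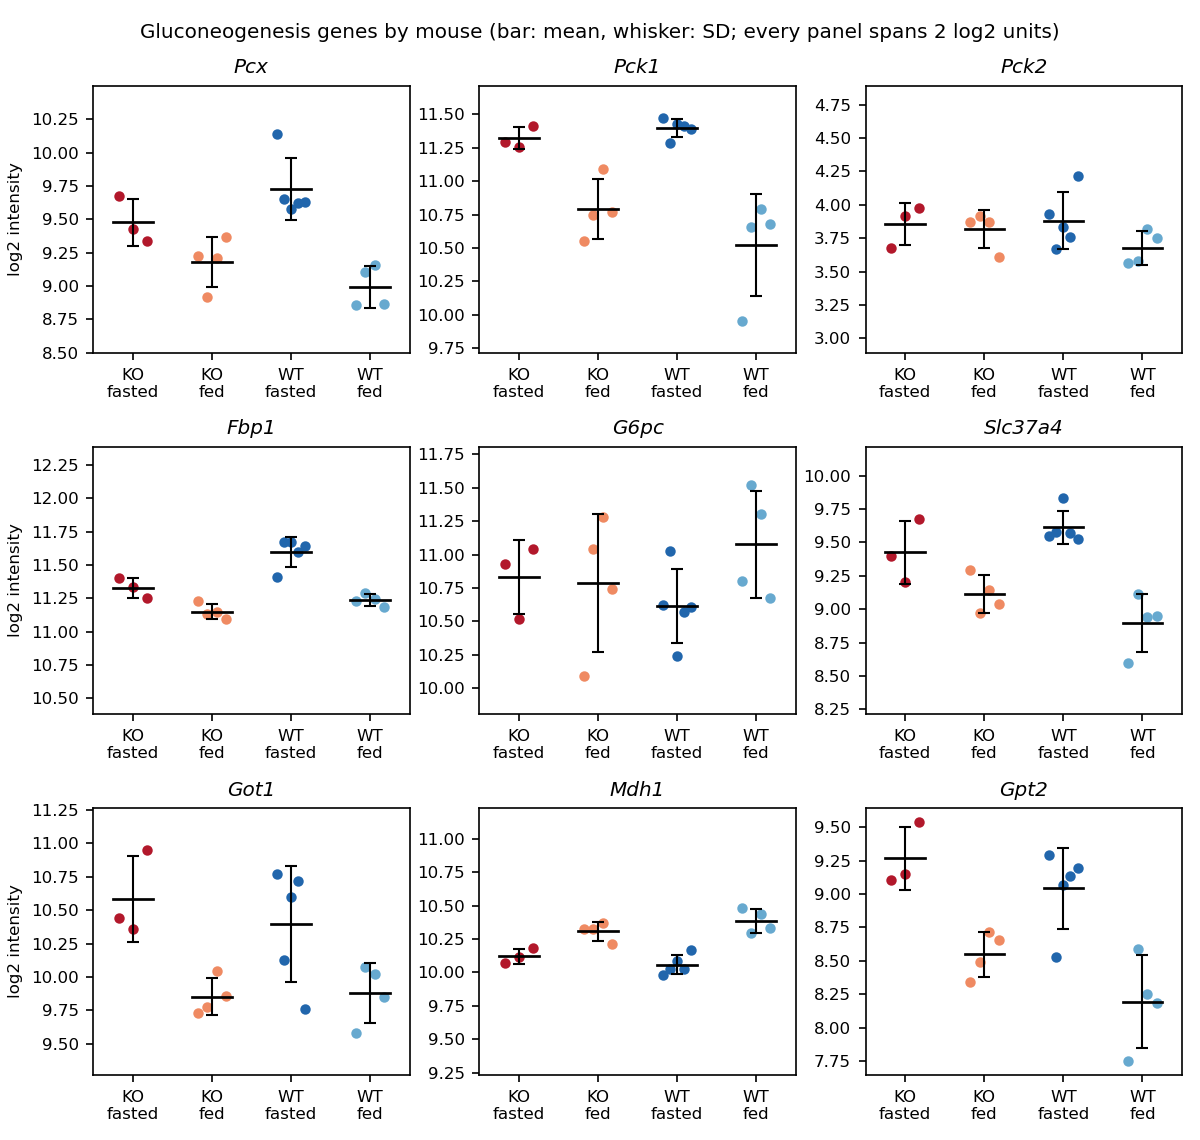
Log2 intensity of the 9 genes (vertical axes, each spanning 2 log2 units) in 3 knockout fasted, 4 knockout fed, 5 wild-type fasted and 4 wild-type fed mice. Points are mice, bars means and whiskers SD. Wild-type fasted mice lie above every wild-type fed mouse for Pcx, Pck1, Fbp1 and Slc37a4 and below every one for Mdh1, while G6pc overlaps between all groups.

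The route opens with Pcx, which makes oxaloacetate from pyruvate inside mitochondria. It stood at 9.67, 9.43 and 9.33 in knockout fasted mice, against 9.22, 8.92, 9.21 and 9.37 in knockout fed mice. Wild-type fasted mice had 10.14, 9.65, 9.58, 9.62 and 9.63, against 8.86, 9.11, 9.15 and 8.87 in wild-type fed mice. The groups overlapped in knockout mice and were apart in wild-type mice. The fasting difference of Pcx was 0.30 ± 0.14 in knockout mice (adjusted p = 0.313) and 0.73 ± 0.12 in wild-type mice (1.66-fold, adjusted p = 0.00108). Without wild-type fasted mouse 1, the highest, the wild-type difference was 0.63 (adjusted p = 0.00127). That mouse stood apart in adipocyte markers, with a summed intensity of 149 over 5 genes, against 29.7 to 48.7 in the other 15 mice, and their part in its values was not tested.

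Pck1, the cytosolic carboxykinase, was higher in every fasted mouse than in any fed mouse. It stood at 11.30, 11.26 and 11.41 in knockout fasted mice, against 10.55, 10.75, 11.09 and 10.77 in knockout fed mice. Wild-type fasted mice stood at 11.47, 11.29, 11.43, 11.41 and 11.39, against 9.95, 10.65, 10.79 and 10.68 in wild-type fed mice. Fasted and fed mice did not overlap in either genotype, and the fed mice spread more widely than the fasted ones, with an SD of 0.08 in knockout fasted mice against 0.22 in knockout fed mice, and of 0.07 in wild-type fasted mice against 0.38 in wild-type fed mice. The difference was 0.53 ± 0.16 in knockout mice (adjusted p = 0.0778), which did not pass, and 0.88 ± 0.14 in wild-type mice (1.84-fold, adjusted p = 0.000648). Without knockout fed mice 1 and 4 the knockout value was 0.40 (adjusted p = 0.431), and it passed without knockout fed mouse 3 (0.63, adjusted p = 0.0328). It passed as well without wild-type fed mouse 1 (adjusted p = 0.00857), which leaves the difference at 0.53 and changes the shared spread alone.

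Pck2, the mitochondrial isoform, gave a signal of 3.56 to 4.22 over all mice, 55.2% of genes having a lower mean. By the same measure the other 8 genes lay above 96.9% of genes or more. Pck2 averaged 3.86 ± 0.16 in knockout fasted mice (SD, n = 3), 3.82 ± 0.14 in knockout fed mice (n = 4), 3.88 ± 0.21 in wild-type fasted mice (n = 5) and 3.68 ± 0.13 in wild-type fed mice (n = 4). All 4 groups overlapped. Its fasting difference did not pass in knockout mice (0.04 ± 0.12, 95% interval -0.22 to 0.30) or in wild-type mice (0.20 ± 0.11, interval -0.02 to 0.43).

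Fbp1, which turns fructose-1,6-bisphosphate into fructose-6-phosphate, varied least between fed mice. Its values were 11.40, 11.34 and 11.25 in knockout fasted mice, against 11.23, 11.13, 11.15 and 11.09 in knockout fed mice. In wild-type fasted mice the values were 11.41, 11.67, 11.67, 11.60 and 11.65, against 11.23, 11.29, 11.24 and 11.19 in wild-type fed mice. The fasted mice were higher without overlap in both genotypes. The difference was 0.18 ± 0.08 in knockout mice (adjusted p = 0.257) and 0.36 ± 0.07 in wild-type mice (1.28-fold, adjusted p = 0.00237), so that this rise, although it passed, was the smallest of the 5 in wild-type mice.

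The last step needs a catalytic unit and a transporter, both in the endoplasmic reticulum. G6pc, the catalytic unit, stood at 10.93, 10.52 and 11.04 in knockout fasted mice, against 10.09, 11.04, 11.28 and 10.74 in knockout fed mice. In wild-type fasted mice it had 10.62, 11.03, 10.24, 10.57 and 10.61, against 10.80, 11.52, 11.30 and 10.68 in wild-type fed mice. Its groups overlapped throughout, and its SD in fed mice, 0.51 in knockout and 0.40 in wild-type mice, was the largest of the 9 genes in those groups. The fasting difference was 0.04 ± 0.25 in knockout mice (interval -0.49 to 0.58, adjusted p = 0.971) and -0.46 ± 0.22 in wild-type mice (interval -0.93 to 0.01, adjusted p = 0.231). In knockout mice the sign of that small value turned without knockout fed mice 1 and 4 (-0.33, adjusted p = 0.681).

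Slc37a4, which carries glucose-6-phosphate to that enzyme, had 9.40, 9.20 and 9.68 in knockout fasted mice, against 9.30, 8.97, 9.14 and 9.04 in knockout fed mice. Wild-type fasted mice had 9.55, 9.58, 9.84, 9.57 and 9.52, against 8.59, 9.11, 8.94 and 8.95 in wild-type fed mice. Knockout fasted mouse 2 lay below knockout fed mouse 1, whereas the wild-type groups were apart. The difference was 0.31 ± 0.13 in knockout mice (adjusted p = 0.237) and 0.71 ± 0.11 in wild-type mice (1.64-fold, adjusted p = 0.000675). Transporter and catalytic unit thus had values of opposite sign in wild-type mice, of which that of the transporter passed. A test of one gene against the other was not made.

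Among Got1, Mdh1 and Gpt2, it was Gpt2, a mitochondrial alanine aminotransferase, that passed in both genotypes. It had 9.11, 9.15 and 9.54 in knockout fasted mice, against 8.34, 8.49, 8.71 and 8.65 in knockout fed mice. In wild-type mice it had 9.29, 8.52, 9.07, 9.14 and 9.19 after the fast, against 7.75, 8.59, 8.25 and 8.19 in wild-type fed mice. Knockout groups were apart, and in wild-type mice fasted mouse 2 lay just below fed mouse 2. Gpt2 rose by 0.72 ± 0.19 in knockout mice (1.65-fold, adjusted p = 0.0428) and by 0.85 ± 0.17 in wild-type mice (1.80-fold, adjusted p = 0.00328). The knockout call was close to the threshold: it was kept in 6 of 16 fits that each left out 1 mouse, and without knockout fed mice 1 and 4 the value was 0.67 (adjusted p = 0.232). With quantile normalization Gpt2 lost its call in knockout mice (adjusted p = 0.065) and Pck1 gained one (adjusted p = 0.0478).

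Got1, the cytosolic aspartate aminotransferase, stood at 10.44, 10.36 and 10.95 in knockout fasted mice, against 9.73, 9.78, 10.04 and 9.85 in knockout fed mice. Wild-type fasted mice had 10.77, 10.13, 10.60, 10.72 and 9.76, against 9.58, 10.08, 10.03 and 9.85 in wild-type fed mice. Every fasted mouse but wild-type fasted mouse 5 lay above every fed mouse. The difference was 0.73 ± 0.21 in knockout mice (adjusted p = 0.0671) and 0.51 ± 0.19 in wild-type mice (adjusted p = 0.1001), and neither passed. Without wild-type fasted mouse 5 the wild-type value was 0.67 (adjusted p = 0.0132), and the knockout value passed as well (adjusted p = 0.0223), since all arrays share 1 estimate of the spread. That mouse stood apart in exocrine pancreas markers too: their summed intensity was 371 there, against 50.3 to 74.6 in the other 15 mice, and their score, the mean log2 value of the 6 measured markers relative to all mice, was 2.60. The part of pancreatic RNA in its Got1 value was not tested. Leaving the mouse out kept all 6 wild-type calls.

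Mdh1, the cytosolic malate dehydrogenase, went the other way. It had 10.07, 10.11 and 10.18 in knockout fasted mice, against 10.33, 10.32, 10.37 and 10.21 in knockout fed mice. Wild-type fasted mice had 9.98, 10.03, 10.08, 10.03 and 10.17, against 10.48, 10.30, 10.44 and 10.33 in wild-type fed mice. Fasted mice were lower without overlap in both genotypes. The difference was -0.19 ± 0.07 in knockout mice (adjusted p = 0.213), and in wild-type mice Mdh1 fell by 0.33 ± 0.06 (adjusted p = 0.00334).

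**Figure D2:**
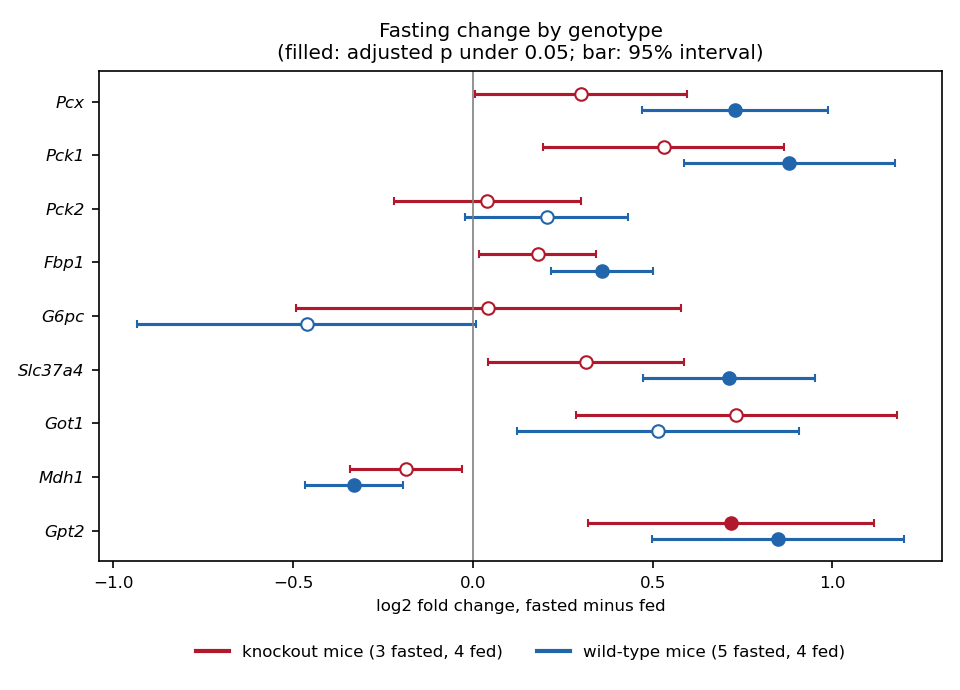
Fasting difference of each gene (horizontal axis, log2 fold change, fasted minus fed) in knockout mice and in wild-type mice. Points are estimates of the limma fit, bars 95% intervals and filled points adjusted p under 0.05. In wild-type mice 6 points are filled, and in knockout mice that of Gpt2 alone, while the intervals of both genotypes overlap for every gene.

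Whether the fasting response differed between the genotypes was tested as the difference of the 2 differences, for which 0.0100% of all genes passed. None of the 9 passed in limma. Unadjusted p was under 0.05 for 2, a count given without the share of all genes at that threshold. These were Pcx, whose response was smaller in knockout mice by -0.43 ± 0.19 (adjusted p = 0.364), and Slc37a4, at -0.40 ± 0.17 (adjusted p = 0.359). Without knockout fed mice 1 and 4 neither was under 0.05 unadjusted: Pcx gave -0.31 (unadjusted p = 0.151) and Slc37a4 -0.34 (unadjusted p = 0.095). Pck1 gave -0.35 ± 0.21 (interval -0.79 to 0.10), Gpt2 -0.13 ± 0.25 (interval -0.66 to 0.40) and G6pc 0.51 ± 0.34 (interval -0.21 to 1.22). Each of these 3 intervals includes 0. With the same mice left out the value of G6pc was 0.13 (adjusted p = 0.892) and that of Pck1 -0.48 (adjusted p = 0.463). Leaving out wild-type fasted mouse 1 instead, the highest in Pcx, gave -0.32 for Pcx (adjusted p = 0.399).

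In fed mice the knockout was compared with the wild type for an effect without a fast. None of the 9 passed in limma, none had an unadjusted p under 0.05, and 0.677% of all genes passed. No gene of the 9 had groups apart, where 6.70% of all genes did. The largest difference was that of Gpt2, which averaged 8.55 ± 0.17 in knockout fed mice and 8.19 ± 0.35 in wild-type fed mice (SD, n = 4 each), with a log2 fold change of 0.35 ± 0.17 (interval -0.01 to 0.72, adjusted p = 0.405). Pck1 averaged 10.79 ± 0.22 in knockout fed mice and 10.52 ± 0.38 in wild-type fed mice, and its difference was 0.27 ± 0.15 (interval -0.04 to 0.58, adjusted p = 0.451). Without knockout fed mice 1 and 4 it was 0.40 (unadjusted p = 0.0392, adjusted p = 0.482). G6pc differed by -0.29 ± 0.23 (interval -0.79 to 0.21), a value that was 0.08 without knockout fed mice 1 and 4.

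Fasted mice gave 1 gene of the 9 whose knockout and wild-type mice were apart, Fbp1, where 8.25% of all genes were. Fbp1 averaged 11.33 ± 0.07 in knockout fasted mice (SD, n = 3) and 11.60 ± 0.11 in wild-type fasted mice (n = 5), with a difference of -0.27 ± 0.07 (interval -0.42 to -0.11, unadjusted p = 0.00194, adjusted p = 0.139). The nearest mice of the groups stood at 11.40 and 11.41. Without wild-type fasted mouse 1, at 11.41, the difference was -0.32 (adjusted p = 0.0495), and over the 16 fits that left out 1 mouse the adjusted p reached 0.503. With all mice none of the 9 passed in limma, and 0.537% of all genes did. Pcx gave -0.25 ± 0.13 (interval -0.53 to 0.04), Slc37a4 -0.19 ± 0.12 (interval -0.45 to 0.07) and Pck1 -0.08 ± 0.15 (interval -0.40 to 0.24). Without wild-type fasted mouse 1, the highest in Pcx, the value of Pcx was -0.14 (adjusted p = 0.721).

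**Figure D3:**
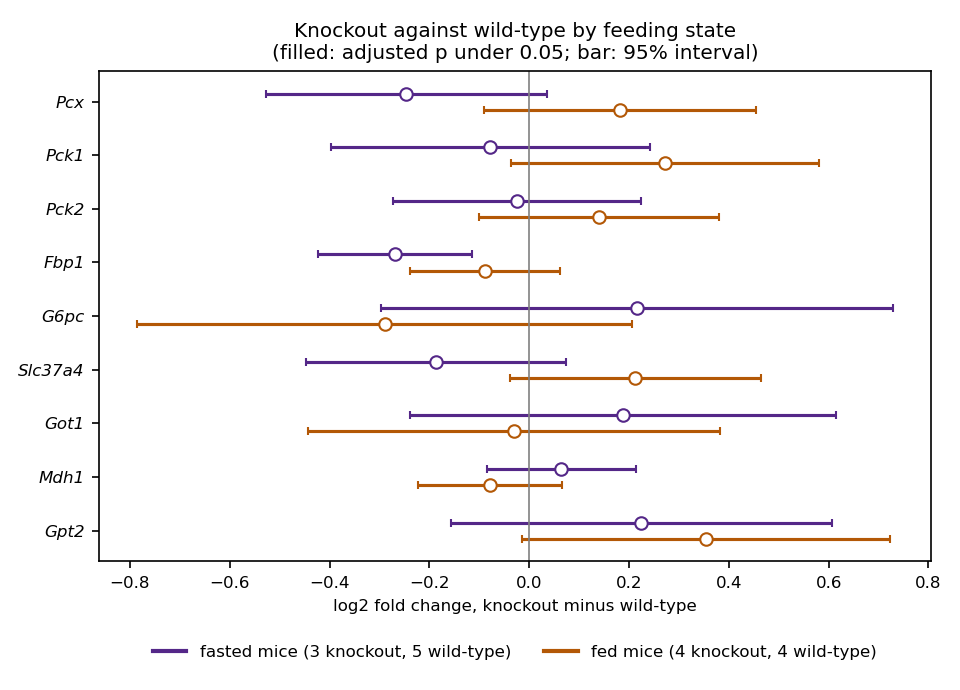
Knockout minus wild-type difference of each gene (horizontal axis, log2 fold change) in fasted mice and in fed mice. Points are estimates of the limma fit and bars 95% intervals. No point is filled, since none passed at an adjusted p under 0.05, and the interval of Fbp1 in fasted mice is the one that excludes 0.

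Markers of other liver cells differed beside these comparisons. Of 8 Kupffer cell markers 1 passed as higher in knockout than in wild-type mice after the fast, as did 0.351% of all genes. In fed mice 2 did, and 0.451% of all genes. The summed intensity of the 8 markers was 605 to 724 in knockout fasted mice against 375 to 615 in wild-type fasted mice, which overlap. It was 849 to 901 in knockout fed mice against 517 to 616 in wild-type fed mice. Clec4f, a receptor of Kupffer cells, was higher in knockout mice by 0.54 in fasted mice (adjusted p = 0.0474) and by 0.88 in fed mice (adjusted p = 0.00203). Without knockout fed mice 1 and 4 the call in fed mice was kept (adjusted p = 0.0219) and that in fasted mice ended (adjusted p = 0.0628). The fasted difference stayed at 0.54, since those mice change the shared spread alone. Its call ended also without wild-type fasted mouse 1 (adjusted p = 0.0781) and without wild-type fasted mouse 5 (adjusted p = 0.0968). In fasted mice, where Fbp1 was apart, the summed intensity of 6 endothelial markers was apart too, at 854 to 969 in knockout and 630 to 784 in wild-type mice. All 6 stellate cell markers had positive values there (median 0.48), with sums of 269 to 333 in knockout and 213 to 272 in wild-type mice. No endothelial or stellate marker passed between genotypes in limma, though 3 and 2 had an unadjusted p under 0.05 in fasted mice. No share of all genes is given for that unadjusted threshold. The part of all these markers in the values of the 9 genes was not tested.

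Of the genes that bring substrate to the pathway, Slc25a13 rose in both genotypes. Of 16 measured genes of 20 listed, 1 rose in knockout mice, where 1.87% of all genes did, and 2 in wild-type mice, where 3.30% did, and none fell. Slc25a13, the aspartate and glutamate carrier of liver mitochondria, rose by 0.51 ± 0.09 in knockout mice (1.42-fold, adjusted p = 0.00506) and by 0.61 ± 0.08 in wild-type mice (1.53-fold, adjusted p = 0.000135). Slc25a10, the dicarboxylate carrier that exchanges malate, gave 0.28 ± 0.15 in knockout mice (adjusted p = 0.392) and rose by 0.62 ± 0.13 in wild-type mice (adjusted p = 0.00551). The list's median was 0.16 in knockout and 0.14 in wild-type mice. The mitochondrial partners of the cytosolic enzymes, Got2 and Mdh2, were at -0.06 and -0.23 in knockout mice and at 0.02 and 0.01 in wild-type mice, and did not pass. Both were named after their values were seen. For Slc25a13 the knockout call ended without knockout fed mice 1 and 4 (adjusted p = 0.0713).

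Steps shared with glycolysis, paralogs of the 9 and the glucose exporter Slc2a2 made up a list of 11, of which 7 were measured. None passed in knockout mice (limma, 2 with an unadjusted p under 0.05, given without the share of all genes). In wild-type mice 1 rose, where 3.30% of all genes did. That was Fbp2, the muscle-type bisphosphatase, at 0.11 ± 0.10 in knockout mice and 0.37 ± 0.09 in wild-type mice (adjusted p = 0.0155). Its mean was 3.21 in wild-type fasted mice and 2.84 in wild-type fed mice, little above 2.79, below which a gene counted as dim. The call ended without wild-type fed mouse 1 (adjusted p = 0.0563). The list's median was -0.19 in knockout and -0.06 in wild-type mice.

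Of the genes that work in the opposing direction some fell. Of 7 measured of 9 listed, 1 fell in knockout mice, where 1.80% of all genes did, and 3 in wild-type mice, where 5.92% did. None rose. Pklr, liver pyruvate kinase, which undoes the work of Pcx and Pck1, averaged 6.85 ± 0.14 in knockout fasted mice against 8.31 ± 0.26 in knockout fed mice, and 7.90 ± 0.48 in wild-type fasted mice against 8.70 ± 0.19 in wild-type fed mice. Its fasting difference was -1.47 ± 0.22 in knockout mice (adjusted p = 0.00125) and -0.81 ± 0.19 in wild-type mice (adjusted p = 0.0132). Between fasted mice it was lower in knockout than in wild-type mice by -1.05 ± 0.21 (adjusted p = 0.0321), a call that ended without any 1 of 7 single fasted mice, with an adjusted p of up to 0.181. The difference of the fasting responses was -0.66 ± 0.29 and did not pass. Mlxipl, the carbohydrate-sensing factor ChREBP, was at -0.39 ± 0.16 in knockout mice (adjusted p = 0.221) and at -0.84 ± 0.14 in wild-type mice (adjusted p = 0.000923). Pdha1, a subunit of pyruvate dehydrogenase, was at 0.05 ± 0.08 and did not pass in knockout mice, and at -0.32 ± 0.07 in wild-type mice (adjusted p = 0.00557).

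Of 25 regulators and co-regulated genes, all measured, 2 rose in knockout mice and none fell, and 6 rose and 2 fell in wild-type mice. Over all genes 1.87% rose and 1.80% fell in knockout mice, and 3.30% rose and 5.92% fell in wild-type mice. Trib3, a pseudokinase that binds AKT, rose by 0.99 ± 0.21 in knockout mice (adjusted p = 0.0126) and by 1.12 ± 0.18 in wild-type mice (adjusted p = 0.000871). Klf15, a transcription factor of amino acid use, rose by 0.48 ± 0.12 in knockout mice (adjusted p = 0.0419) and by 0.59 ± 0.11 in wild-type mice (adjusted p = 0.00239). When knockout fed mice 1 and 4 were left out, both knockout calls ended, that of Trib3 at adjusted p = 0.118 and that of Klf15 at adjusted p = 0.207. The Klf15 call in knockout mice was near the threshold: it was kept in 7 of 16 fits without 1 mouse (adjusted p up to 0.161), and ended also with quantile normalization, median centring, all probe sets and only the groups compared. The factor Cebpb, which binds the Pck1 promoter, was at 0.22 ± 0.21 in knockout mice (adjusted p = 0.696) and rose by 0.99 ± 0.18 in wild-type mice (adjusted p = 0.0021). Cebpb differed by 0.61 in knockout mice without fed mice 1 and 4 (adjusted p = 0.126). The clock repressors parted: in wild-type mice Cry2 rose by 0.83 ± 0.17 and Cry1 fell by 1.07 ± 0.20, with 0.57 ± 0.19 and -0.30 ± 0.23 in knockout mice, where neither passed. Leaving out knockout fed mice 1 and 4 gave knockout values of 0.39 for Cry2 (adjusted p = 0.562) and -0.0059 for Cry1 (adjusted p = 0.995). Hnf4a and Foxo1, the other two that rose in wild-type mice, were at 0.56 ± 0.13 and 0.51 ± 0.13 and were named after their values were seen. Nr3c1, the glucocorticoid receptor, was at -0.19 ± 0.09 in knockout mice and fell by 0.29 ± 0.08 in wild-type mice (adjusted p = 0.032), a call that ended without any 1 of 6 single mice. Its knockout value without knockout fed mice 1 and 4 was -0.29 (adjusted p = 0.276). The coactivator Ppargc1a, also named after its values were seen, gave 0.83 ± 0.32 in knockout and 0.66 ± 0.29 in wild-type mice and did not pass.

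**Figure D4:**
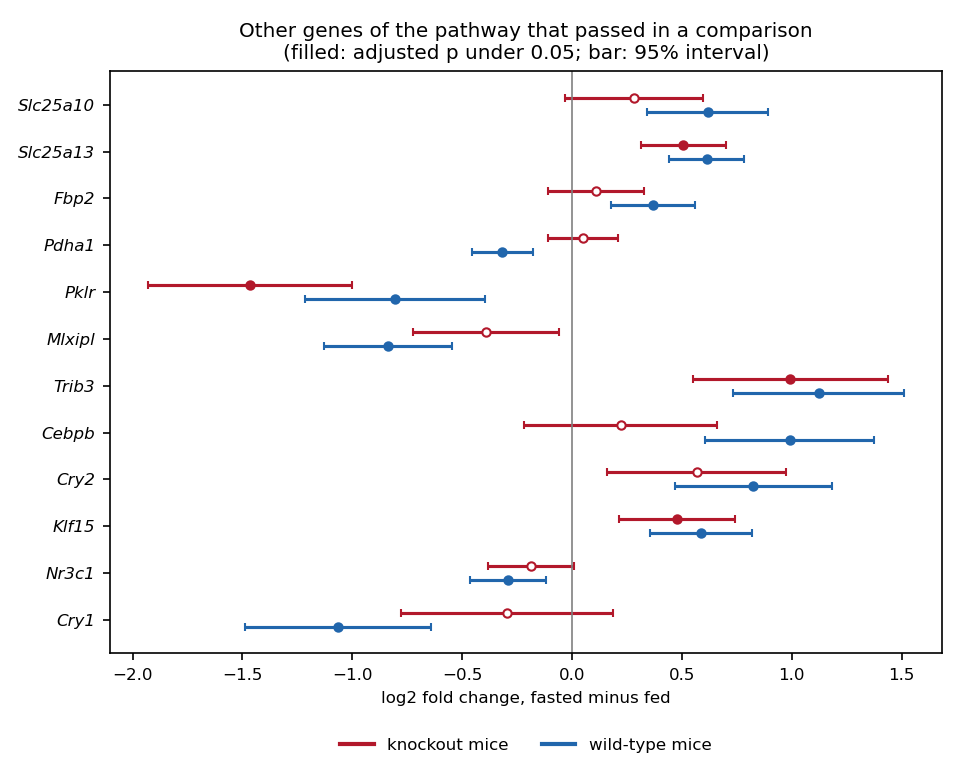
Fasting difference (horizontal axis, log2 fold change, fasted minus fed) of other genes of the pathway that the naming rule chose, in knockout mice and in wild-type mice. Points are estimates of the limma fit, bars 95% intervals and filled points adjusted p under 0.05. Slc25a13, Trib3, Klf15 and Pklr are filled in both genotypes, the knockout points of the first 3 losing their call without knockout fed mice 1 and 4.

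For the 6 enzymes that passed in a comparison, the genes nearest in pattern were sought among 11960 brighter genes. Nearness was the root mean square difference of log2 values, each relative to its gene's mean, over the 16 arrays. Pck1 was nearest to the cationic amino acid transporter Slc7a2 (0.135) and to Cln8 (0.143), where Pck1 itself varied by 0.420 around its mean. Gpt2 was nearest to Pck1 (0.204) and Cln8 (0.208), Pcx to Map1lc3b (0.117) and Mgll (0.129), and Slc37a4 to Tango2 (0.128) and Abhd15 (0.134). Fbp1 was nearest to Pgm1 (0.0861) and Aph1a (0.0930), and Mdh1 to Aifm1 (0.0641) and Smcr8 (0.0724). These distances share their arrays and are a description with no test.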

How the data were processed

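The series holds 1 deposited intensity per probe set and array, on a linear scale. Per the submitters' processing notes the authors used RMA, and array medians lay between 8.08 and 8.61. Software version and build: not given in the sources used here. Log2 was taken here, with no pseudocount. Symbols came from the platform annotation: of 35519 probe sets 21780 had 1 symbol, 1605 several and 12134 none. The probe set with the highest mean stood for a gene, which left 19935 genes. Each of the 9 enzymes had 1 probe set.

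limma 3.58.1 in R 4.3.3 (lmFit, eBayes) fitted 4 group means over 16 arrays, with 12 residual and 4.55 prior degrees of freedom. The fit was tested on simulated data with the same groups. Of changes of 0.5 log2 it recovered 46% for fasting in knockout mice, 76% in wild-type mice and 28% for the interaction. For changes of 1.0 log2 the shares were 96%, 90% and 84%. Changes of 0.5 log2 were thus recovered less often in knockout mice and for the interaction.

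The 9 enzymes, the lists and the motifs were chosen with earlier results of these data known. Named besides them were up to 4 rises and 4 falls per pathway list and comparison, and the 2 genes nearest in pattern to each enzyme that passed. Alternatives were quantile normalization, median centring, leaving out dim genes (mean log2 under 2.79), all probe sets, the median probe set, a replicate block, only the groups compared, leaving out knockout fed mice 1 and 4, and leaving out each mouse.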

Additional observations from a re-analysis of the deposited data

Results flagged for a closer look

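In 5 of 27 combinations of enzyme and group 1 mouse stood far from the rest of its group by Dixon's test, which chance alone would give in about 1 of 20. Pck1 was 9.95 in wild-type fed mouse 1, where the other 3 lay between 10.65 and 10.79. Pck2 was 3.61 in knockout fed mouse 4, below 3.87 to 3.92 in the others. Of the 5, 3 were found in wild-type fasted mice: Fbp1 at 11.41 in mouse 1 (others 11.60 to 11.67), Pcx at 10.14 in mouse 1 (others 9.58 to 9.65) and Slc37a4 at 9.84 in mouse 3 (others 9.52 to 9.58).

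For Mdh1 every knockout mouse lay below the wild-type mean in fed mice and above it in fasted mice. The fasting differences of the genotypes differed by 0.14 ± 0.10, which did not pass the interaction test (limma adjusted p = 0.548).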

How the results depend on the processing

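For fasting in wild-type mice, 6 of the 9 enzymes passed, 6 or 7 in each of 8 other settings and 6 to 7 when single mice were left out. The gene added was Got1, with the replicate block (adjusted p = 0.0108) and without wild-type fasted mouse 5. For fasting in knockout mice the count was 0 with arrays centred on the common median, with all probe sets and without knockout fed mice 1 and 4, and 2 with dim genes left out and with only the groups compared. It was 0 to 2 when single mice were left out. The replicate numbers were not taken to pair the mice: of 21 same-numbered pairs across groups, 6 had deviations from the group means correlated above 0.1. Of 74 different-numbered pairs 19 did. The median correlation was 0.074 for same-numbered and -0.042 for different-numbered pairs. With quantile normalization the count stayed 1, but Gpt2 was lost and Pck1 gained. With the replicate block 7 enzymes passed in wild-type and 1 in knockout mice, where Gpt2 was lost and Got1 gained. Between genotypes in fasted mice 0 to 1 passed without single mice.

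Over all genes, fasting in knockout mice called 732, but 401 with only the groups compared, 218 without knockout fed mice 1 and 4 and 330 to 951 without single mice. Knockout in fed mice called 135, but 76 with only the groups compared, 51 without mice 1 and 4 and 59 to 274 without single mice. Fasting in wild-type mice called 1838 (1199 to 2006 without single mice), and knockout in fasted mice 107 (21 to 126). The interaction called 2, both positive, and 1, also positive, with dim genes left out, all probe sets or the replicate block. Without mice 1 and 4 it called 1 negative and 0 positive, and without single mice 0 to 8. The cause was not tested.

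No value that passed with all mice changed sign. Of those that did not pass, G6pc for fasting in knockout mice was -0.011 with the replicate block, -0.33 without mice 1 and 4 and -0.19 to 0.21 without single mice. Pck2 was -0.038 there without mice 1 and 4 and -0.031 to 0.13 without single mice, and Ppard 0.00726 without mice 1 and 4. In fed mice the knockout value of G6pc was 0.082 and that of Got1 0.028 without mice 1 and 4, and Got1 ranged from -0.13 to 0.034 without single mice. In fasted mice that of Pck2 was 0.039 with the replicate block and -0.086 to 0.065 without single mice, and the interaction of Gpt2 ranged from -0.27 to 0.019. Signal limits what can be read from Fbp2, near the dim limit, and from Pck2, whose mean was above that of 55.2% of genes.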

Other observations

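Lists of other cell types were read beside the enzymes. Over all genes, fasting lowered 1.80% in knockout mice and 5.92% in wild-type mice. In knockout mice fasting lowered Saa1 of 8 acute phase genes (-3.81, adjusted p = 0.0324) and Clec4f of 8 Kupffer cell genes (-0.46, adjusted p = 0.044). Without knockout fed mice 1 and 4, which had the highest acute phase scores, Saa1 gave -1.93 (adjusted p = 0.319) and Clec4f -0.47 (adjusted p = 0.19), and neither passed. In wild-type mice it lowered Clec4g of 6 endothelial genes (-0.85, adjusted p = 0.0125), Col3a1 of 6 stellate cell genes (-0.80, adjusted p = 0.0208), Fgb of 6 hepatocyte genes (-0.31, adjusted p = 0.0106) and the red cell gene Alas2 (-0.61, adjusted p = 0.00394). In fed mice Clec4f and C1qb were higher in knockout mice, and without mice 1 and 4 the call of C1qb ended (adjusted p = 0.196). No gene of the bile duct, adipocyte, pancreas, lymphocyte or neutrophil lists passed in any comparison.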
